A study of Mus musculus with 4 samples.

Results

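The mesothelium is the simple epithelium that covers the lung, and its cells combine epithelial junctions and keratins with transcription factors such as Wt1 and with an abundant matrix. In the embryonic lung it signals to the mesenchyme beneath it and can give rise to mesenchymal cells. The Cre control libraries hold mesothelial cells with UMIs (unique molecular identifiers, each marking 1 captured transcript) of Col6a5 and Col6a6 (collagen VI chains), Igfbp3 (a secreted binding protein for insulin-like growth factors), Fndc1 (a fibronectin type III domain protein), Osr1 (an odd-skipped transcription factor) and Smpd3 (a neutral sphingomyelinase). Control barcodes were first kept where 1000 or more genes were detected and mitochondrial UMIs did not exceed 15%. Members then had at least 2 CP10k (UMIs scaled to a common total per cell) of Upk3b, at least 1 CP10k of Lrrn4, less than 2 CP10k of Sftpc, and UMIs of at least 3 of the 6 genes. Upk3b encodes a uroplakin and Lrrn4 a membrane protein of mesothelial cells, and Sftpc encodes an alveolar surfactant protein. Members were thus selected on the measured levels of these 9 genes. The rule found 77 cells in control library 1 and 385 in control library 2, 462 of 3889 control barcodes that passed the filter and of 8733 in all 4 libraries. The 377 comparison cells, 28 and 349, had at least 10 CP10k of Upk3b and fewer than 3 of the 6 genes.

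The libraries hold tdTomato-positive, DAPI-negative lung cells sorted from E16.5 mouse embryos, 2 libraries of Myrf mutants and 2 of Cre controls. The labelled mating joined Myrf Fl/Fl;R26TdTomato/R26TdTomato animals with Wt1creERT2;Myrf Fl/Fl animals, and tamoxifen was injected at E12.5. A tamoxifen-dependent Cre expressed from Wt1 therefore set the reporter in both groups, in cells that expressed Wt1 and in their descendants. The labels call the controls Cre controls and do not give their Myrf alleles. Each pool joined the lungs of 3 to 5 embryos of a genotype, the genotypes were read from lung and cell shape with a later PCR, and about 50000 cells were sorted and about 16000 loaded per genotype. The labels do not say if replicate libraries were made from different pools, so the p-value below measures only the spread between these libraries. After filtering, mutant libraries 1 and 2 held 412 and 4432 barcodes with median depths of 38681 and 16219 UMIs, and control libraries 1 and 2 held 282 and 3607 with 29161.5 and 14402. Over all pairs of libraries 7 cell barcodes were shared, none of them a member.

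Cells that met the rule were rare in the mutants. They made up 0.243% (1 of 412; exact Clopper-Pearson 95% interval 0.00614 to 1.34%) and 0.158% (7 of 4432; 0.0635 to 0.325%) of mutant libraries 1 and 2, against 27.3% (77 of 282; 22.2 to 32.9%) and 10.7% (385 of 3607; 9.68 to 11.7%) of control libraries 1 and 2. The intervals cover counting error only. Both mutant shares lay below both control shares, with means of 0.200 ± 0.060% in mutants and 18.99 ± 11.8% in controls (SD, n = 2 each) and a difference of -18.8 points. The two-sided exact permutation p was 0.333, the smallest that 2 against 2 libraries allow. The rule was set on the control libraries, with earlier results of these data known. That choice can favour higher control shares, so the p is not an independent test and nothing is concluded from it. The mesothelial gate as a whole (the Upk3b, Lrrn4 and Sftpc limits without the 6 genes) was also rare in the mutants, with 1 and 11 barcodes in the mutants and 98 and 644 in the controls. The members' share of the gate was 1 of 1 and 7 of 11 in the mutants, against 78.6% and 59.8% in control libraries 1 and 2.

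**Figure D1:**
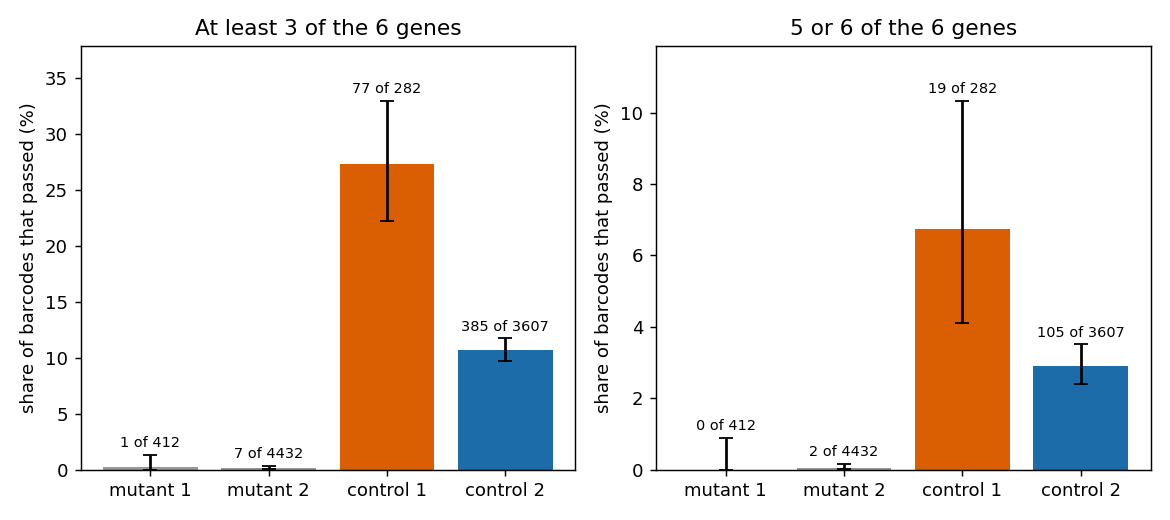
Share of the barcodes that passed the filter (%, y axis) in each library (x axis), for cells with at least 3 of the 6 genes (left) and with 5 or 6 (right); bars are shares, whiskers exact 95% Clopper-Pearson intervals, and counts stand above the bars. At most 7 mutant barcodes met the rule in a library, against 77 and 385 control barcodes.

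The 8 mutant barcodes that met the rule were too few for a comparison of levels, and their values are given beside those of the control members. Smpd3 had a UMI in all 8, and stood at 891 CPM (a gene's UMIs over the listed cells, relative to all UMIs of those cells) in the 1 cell of mutant library 1 and 127 CPM in the 7 cells of mutant library 2, against 89.1 and 104 CPM in the control members. Fndc1 had a UMI in 1 of the 8, and stood at 0 and 3.34 CPM against 97.7 and 90.6 CPM in the control members. Col6a5 stood at 0 and 26.7 CPM against 168 and 99.5 CPM, and Col6a6 at 0 and 90.2 CPM against 360 and 246 CPM. Osr1 stood at 60.7 and 60.2 CPM against 60.1 and 76.2 CPM, and Igfbp3 at 162 and 40.1 CPM against 161 and 96.7 CPM. Fewer cells of a type cannot be told apart from cells that fell out of the gate.

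Within the controls, the rule selected most gated cells, and a larger share of the deeper ones. Members had median depths of 36343 and 22739 UMIs, against 25498 and 12520 UMIs in comparison cells. Among gated cells of control library 1, split into 3 equal parts by depth, 57.6% of the shallowest, 97.0% of the middle and 81.3% of the deepest part were members. In control library 2 these shares were 37.2%, 62.3% and 79.9%. Each cell was then thinned to 5000 UMIs and the gate was applied again to the thinned counts. Of the cells gated in this way, 19 of 84 in control library 1 and 99 of 485 in control library 2 had at least 3 of the 6 genes. Cells below 5000 UMIs, and cells that no longer met the gate, are not among the 84 and 485. The 6 genes differed in how they contributed. Col6a6 had a UMI in 98.7% and 96.1% of members and also in 82.1% and 61.9% of comparison cells, whereas Fndc1 had one in 29.9% and 42.6% of members and in 3.57% and 7.16% of comparison cells. After thinning, Fndc1 was seen in 18.2% and 21.6% of members. As a background for such shares, in cells gated as endothelial, 13 and 10 barcodes with median depths of 15468 and 12506 UMIs, Fndc1 had a UMI in 0% and 10%, and Col6a5 in none. In 15 cells of control library 2 gated as epithelial, at 39222 UMIs, Fndc1, Col6a5 and Col6a6 each had a UMI in 26.7%. At equal depth, thinned to 5000 UMIs, Fndc1 was seen in 4.96% of comparison cells of control library 2 and in 0% of its epithelial-gated and endothelial-gated cells (14 and 10 cells). The comparison cells of control library 1 had a Fndc1 UMI in 1 of 28 cells.

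**Figure D2:**
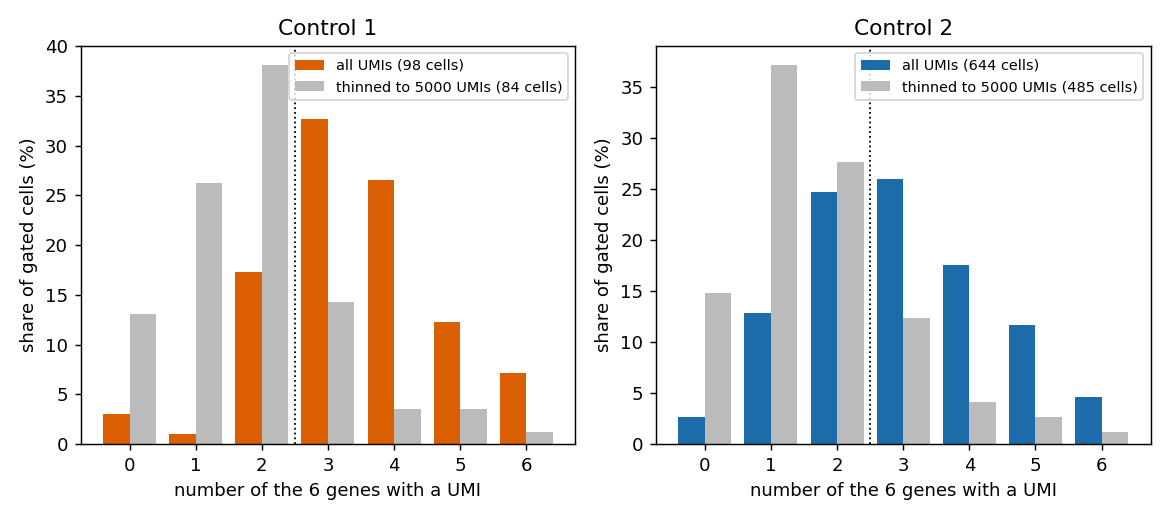
Share of gated control cells (%, y axis) by the number of the 6 genes with a UMI (x axis), with all UMIs (coloured) and thinned to 5000 UMIs (grey), in control libraries 1 (left) and 2 (right). The dotted line marks the rule, and 19 of 84 and 99 of 485 cells gated again after thinning lie to its right.

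Members were set against comparison cells gene by gene. UMIs were summed per library, and a gene was counted when its ratio of CPM, with 10 CPM added to each side, was at least 2-fold in the same direction in both control libraries. Of 9015 genes with a mean of at least 10 CPM, 7 were higher (0.0776%) and 0 were lower (0%), and 4 of the 7, Fndc1, Osr1, Igfbp3 and Smpd3, are genes of the rule. The rule chose this contrast, so the count carries no test and nothing is read from it. Of the same 9015 genes, 121 were past 2-fold higher and 14 lower within control library 1, and 9 and 2 within control library 2. After thinning to 5000 UMIs, 35 genes were higher and 8 lower in both. With comparison cells held to the members' Upk3b, Lrrn4 and Sftpc limits, 6 of 8998 genes were higher and 0 lower. In the main contrast, the other 3 of the 7 higher genes were Fn1, Igf1 and Filip1l.

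Fn1, the matrix glycoprotein fibronectin, had the largest mean ratio of these 3. It stood at 147 and 162 CPM in members of control libraries 1 and 2, against 12.3 and 34.2 CPM in comparison cells, a log2 ratio of 2.39 ± 0.60 (SD, n = 2). Of the Fn1 UMIs of members, 325 of 446 and 798 of 1607 lay in the 7 and 39 cells of a cluster described below. Igf1, a growth factor that Igfbp3 binds, stood at 242 and 193 CPM in members and 90.4 and 90.7 CPM in comparison cells, a log2 ratio of 1.17. For Igf1 and Fn1 both member values exceeded both comparison values. Mesothelial genes differed little. The log2 ratios of Wt1, Myrf and Msln (mesothelin, a surface glycoprotein) were 0.01, 0.05 and -0.02. Of 29 tested genes of the cell cycle list, 27 were positive in both libraries and none passed 2-fold in both. Their median log2 ratio was 0.46 against 0.00414 over all genes tested. Single genes did pass 2-fold in control library 1, such as Top2a with log2 ratios of 2.14 and 0.70 in control libraries 1 and 2. The list summed to 2032 and 2196 CPM in members against 978 and 1606 CPM in comparison cells. Depth moved with it: the deeper-sequenced members of control library 2 held 2593 CPM of the list and the shallower ones 1321 CPM. The part of depth in the difference was not tested.

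The label's first 2 genes did not mark the same cells. Across gated cells the correlation of log-scaled Col6a5 and Igfbp3 was -0.01 in control library 1 (98 cells) and -0.02 in control library 2 (644 cells), and 0.13 and 0.00 after thinning (84 and 485 cells). These are descriptions across cells of 1 library. Fndc1 and Osr1 went together at 0.72 and 0.43, and Fndc1 went with Fn1 at 0.84 and 0.65. Fn1 went against Hhip, a secreted and membrane-bound inhibitor of hedgehog ligands, at -0.68 and -0.57, and Hhip went with Col4a4, a basement membrane collagen IV chain, at 0.77 and 0.68. After thinning the Fndc1 and Fn1 values were 0.59 and 0.54. The name "Col6a5 Igfbp3 subtype" is therefore not used below, and members are called by the rule.

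The members that carried more of the 6 genes differed from the rest in Fn1 and Hhip. In cells with 3 genes Fn1 stood at 18.7 and 35.9 CPM, in those with 4 at 36.2 and 83.9 CPM, in those with 5 at 297 and 184 CPM and in those with 6 at 558 and 754 CPM (control libraries 1 and 2). Hhip moved the other way, at 1533 and 1071 CPM with 3 genes and 665 and 411 CPM with 6. Just outside the rule, gated cells with 2 genes (17 and 159) held 15.1 and 31.0 CPM of Fn1, and cells with 3 (32 and 167) held the 18.7 and 35.9 CPM above. Fndc1 stood at 0 and 14.3 CPM in the cells with 2 genes and 8.89 and 21.1 CPM in those with 3. For Fn1 and Fndc1, levels on either side of the border were close, and the larger steps lay between 4 and 6 genes. Other genes of the rule varied at the border, which counts them. From 2 to 3 genes Osr1 went from 0 and 18.4 CPM to 19.6 and 38.3 CPM. Col6a5 went from 43.4 and 62.6 CPM to 112 and 89.8 CPM, and Col6a6 from 351 and 235 CPM to 307 and 253 CPM. Against members with 3 or 4 genes, the 19 and 105 cells with 5 or 6 had 29 of 9065 genes higher (0.320%) and 1 lower (0.0110%). The lower gene was Cxcl14, a chemokine, with log2 ratios of -1.04 and -1.12. The cells were split on the 6 genes, and Fndc1, Osr1, Igfbp3 and Smpd3 are among the higher genes, so these counts carry no test. Cells with 6 genes were also deeper, at 52882 and 36370 median UMIs against 33252 and 20362 with 3.

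**Figure D3:**
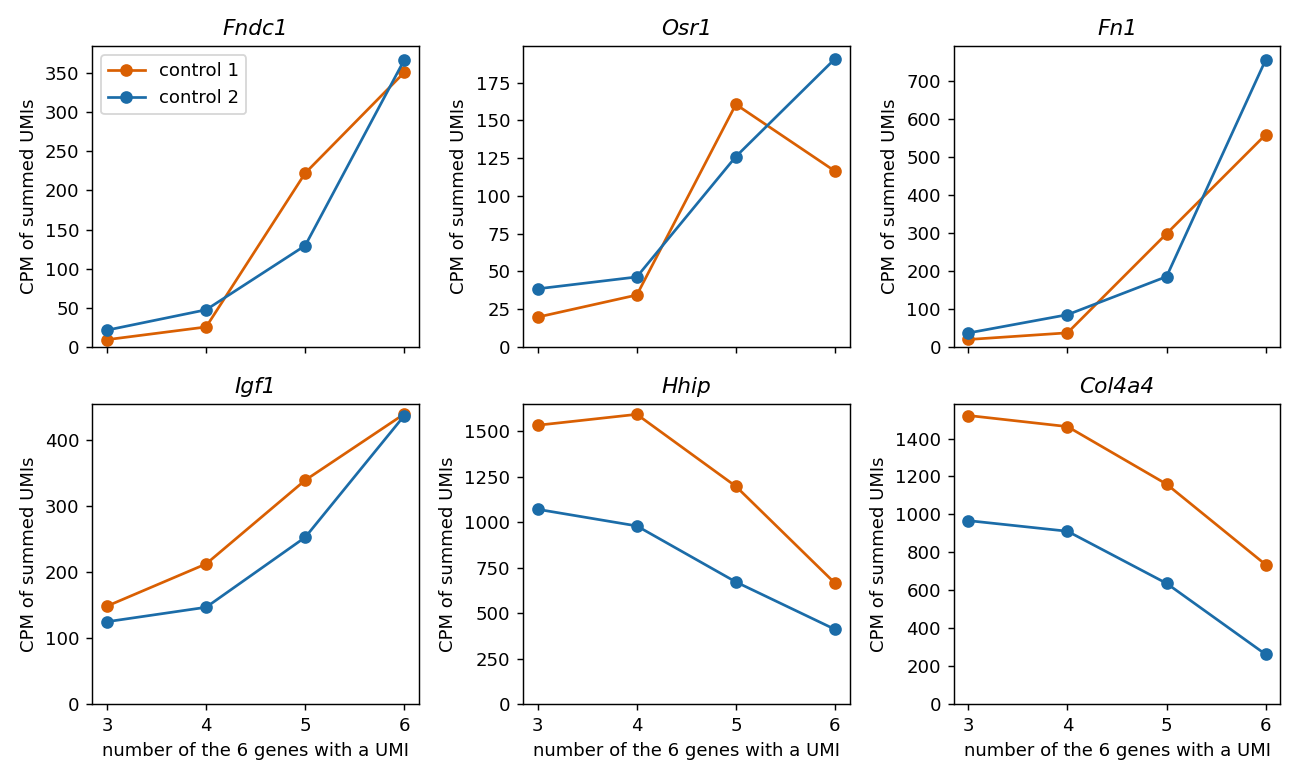
CPM of UMIs summed over members (y axes, each from 0) by the number of the 6 genes with a UMI (x axes), for 6 genes in control libraries 1 (orange) and 2 (blue). Fndc1, Osr1, Fn1 and Igf1 are higher, and Hhip and Col4a4 lower, in cells with 5 or 6 genes than in cells with 3. Fndc1 and Osr1 are among the 6 genes counted on the x axes, so their rise is partly set by that count.

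A group of members with this pattern stood apart when the cells were clustered. The gated and comparison cells, 108 and 827, were clustered without the 9 genes of the rule, after these results had been seen, and gave 8 clusters. Cluster 7, called the Fn1-high cluster here, was picked from the 8 because its cells had the highest mean number of the 6 genes. It held 7 and 39 cells, and all 46 were members. That pick favours members and cells with many of the 6 genes, so these counts are descriptions. They were 9.09% and 10.1% of the members of control libraries 1 and 2, and 6 and 33 of them had 5 or 6 of the 6 genes. The cluster was found again at 5 other settings, with 41 to 49 cells. Its cells had median depths of 38515 and 22739 UMIs against 35151 and 20925 in other gated cells, and mitochondrial shares of 3.97% and 3.89% against 3.88% and 3.90%. No cell of the cluster lay among the highest doublet scores. That set held only 1 of 282 and 104 of 3607 barcodes of control libraries 1 and 2, so doublets in the cluster are not excluded. The other members were spread over 7 clusters. Cluster 1 held 64 members and 101 comparison cells of control library 2 at a median of 7865 UMIs and the highest Sftpc level, a mixed profile, and is left out of the cells compared below. The cluster was defined from 1979 variable genes of the same cells and picked by the 6 genes. The ratios below, also those of the 9 genes left out, therefore describe it and test nothing.

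Of the 6 genes of the rule, 5 were past 2-fold higher in both libraries in the Fn1-high cluster than in the other gated cells (90 and 476), and Col6a6 was not. Fndc1 stood at 682 and 447 CPM in the cluster, against 31.3 and 36.7 CPM in other gated cells. Osr1 stood at 348 and 319 CPM against 25.2 and 38.3 CPM, and Col6a5 at 639 and 258 CPM against 106 and 75.6 CPM. Col6a6 stood at 557 and 427 CPM against 337 and 237 CPM, a log2 ratio of 0.77. Igfbp3 stood at 706 and 298 CPM against 94.95 and 64.7 CPM, and only a part of the cells carried it: it had a UMI in 57.1% and 69.2% of the cluster and in 56.7% and 41.8% of the other gated cells, with a highest cell at 22.1 and 17.8 CP10k. Fndc1, in contrast, had a UMI in 100% and 92.3% of the cluster and in 17.8% and 20.6% of the others.

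Of 8992 genes tested, 117 were higher by 2-fold or more in both libraries (1.30%) and 297 were lower (3.30%). Fn1 led the higher genes at 1154 and 902 CPM in the cluster against 38.8 and 55.2 CPM in other gated cells, a log2 ratio of 4.19 ± 0.55 (SD, n = 2), and had a UMI in every one of the 46 cells. Others included Csrp2, a LIM-domain protein, at 788 and 707 CPM against 51.7 and 104 CPM, and Fabp5, a fatty acid binding protein, at 1881 and 1126 CPM against 168 and 258 CPM. Lgals1, a galectin, stood at 4466 and 4823 CPM against 938 and 1125 CPM. Among genes of the insulin-like growth factor list, 3 of 12 were higher and none lower by 2-fold in both libraries. The 3 were Igfbp3, Igf1 (909 and 642 CPM against 157 and 118 CPM) and Igfbp4, a second binding protein of those factors (586 and 420 CPM against 98.9 and 115 CPM). Of these 12 genes, 7 were negative and 5 positive in both libraries. Summed, the list was lower in the cluster, at 9709 and 8123 CPM against 12650 and 10196 CPM. The small proteoglycan Dcn (decorin) stood at 2570 and 2285 CPM against 546 and 545 CPM, and Fbln2, an elastic fibre glycoprotein, at 1253 and 1346 CPM against 339 and 405 CPM. They are 2 of the 3 genes called higher among 14 tested on the elastic fibre and small proteoglycan list, with 0 lower. In both libraries 6 of the 14 were positive and 5 negative, and without Dcn the log2 ratio of the sum was 0.20. Of 8 tested genes of the fibroblast list, 2 were higher and none lower, Fn1 and Twist1, and Col1a1, the main fibrillar collagen chain, reached 7181 and 4914 CPM against 3101 and 2681 CPM, a log2 ratio of 1.04 with 1 library under 2-fold. Of the 8, 6 were positive in both libraries, and the list summed to 22545 and 15837 CPM against 10624 and 9419 CPM. Tcf21, a lung fibroblast transcription factor, had a UMI in 0 of 7 and 1 of 39 cells of the cluster, against 3.33% and 8.19% of other gated cells. Pdgfra, a growth factor receptor of fibroblasts, had one in 2 of 7 and 1 of 39 cells, against 15.6% and 13.2%. The part of fibroblast RNA in the differences was not tested.

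**Figure D4:**
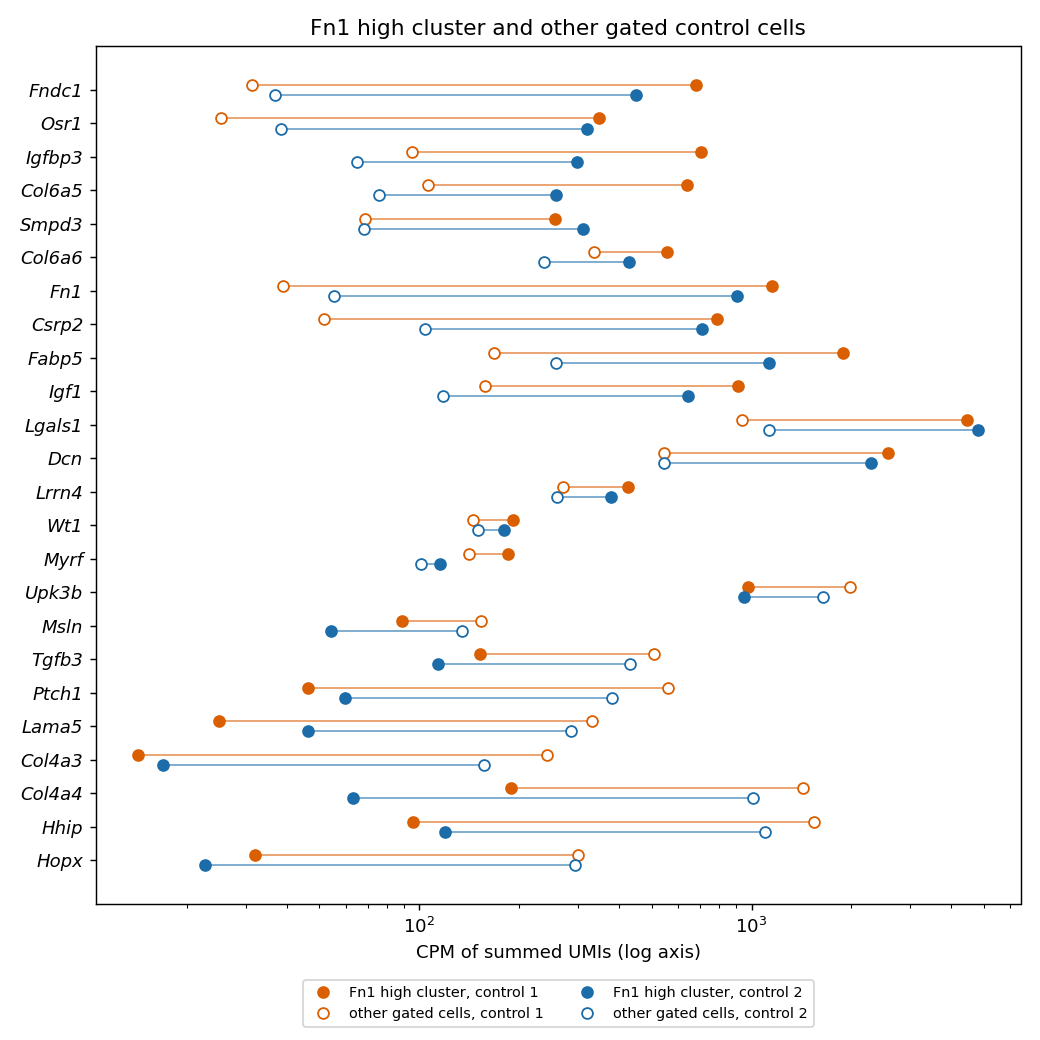
CPM of summed UMIs (log x axis) for named genes (y axis) in the Fn1-high cluster (filled) and in other gated cells (open), in control libraries 1 (orange) and 2 (blue), joined by a line. Filled points lie right of open points for Fn1 (1154 and 902 against 38.8 and 55.2 CPM) and left of them for Hhip (95.9 and 120 against 1544 and 1100 CPM).

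The genes lower in the cluster included 3 of 10 tested on the hedgehog list, and none of the 10 was higher. Hedgehog proteins from the airway epithelium act on cells around it, where Ptch1, the receptor, Gli1, a transcription factor, and Hhip are known to rise with signalling. Hhip stood at 95.9 and 120 CPM in the cluster against 1544 and 1100 CPM in other gated cells, a log2 ratio of -3.49 ± 0.55. Ptch1 stood at 46.1 and 59.9 CPM against 559 and 380 CPM, and Gli1 at 14.2 and 19.2 CPM against 98.0 and 68.7 CPM. Of 8 tested genes of the retinoic acid list, 3 were lower. Aldh1a2, which makes retinoic acid in the mesothelium, stood at 217 and 349 CPM against 1228 and 1099 CPM, and Aldh1a1 and Rdh10 were lower too. Tgfb3, a TGF-beta ligand, stood at 153 and 114 CPM against 507 and 430 CPM.

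Of 19 tested basement membrane genes, 9 were lower and 3 higher. Col4a4 stood at 188 and 63.3 CPM in the cluster against 1432 and 1011 CPM in other gated cells, and Col4a3 at 14.2 and 16.9 CPM against 242 and 156 CPM, log2 ratios of -3.33 ± 0.66 and -3.00 ± 0.53 (SD, n = 2). Lama5, a laminin chain, stood at 24.9 and 46.3 CPM against 330 and 286 CPM, and Col4a1, Col4a2, Lamb2, Lamc1, Npnt and Frem2 were lower as well. Higher were Nid2 (nidogen 2), at 376 and 305 CPM against 123 and 131 CPM, Lama2, and Col18a1, a basement membrane collagen, at 74.5 and 125 CPM against 4.51 and 7.66 CPM. Col4a3 and Col4a4 lie head to head on chromosome 1, Col4a4 from 82448423 to 82586849 on the minus strand and Col4a3 from 82586921 to 82722059 on the plus strand (GENCODE vM21, mm10), with 71 bases between their annotated starts. The window is shown because both genes were lower in the same cells: the RefSeq promoter of Col4a4 (GRCm38.p6, chr1:82586800-82587099, minus strand, 5′ to 3′) also holds the Col4a3 start, and capitals mark the 71 bases between the starts.
Col4a4 and Col4a3: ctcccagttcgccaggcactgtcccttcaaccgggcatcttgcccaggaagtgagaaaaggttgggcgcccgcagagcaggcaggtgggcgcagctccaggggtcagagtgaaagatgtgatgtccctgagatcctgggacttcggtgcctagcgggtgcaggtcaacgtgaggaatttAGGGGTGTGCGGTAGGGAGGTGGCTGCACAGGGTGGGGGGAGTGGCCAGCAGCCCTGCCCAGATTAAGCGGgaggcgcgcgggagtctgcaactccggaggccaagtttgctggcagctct

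The window of Fndc1, the rule gene with the largest ratio, is shown for contrast (GRCm38.p6, chr17:7827253-7827552, minus strand), with capitals for motif matches.
Fndc1: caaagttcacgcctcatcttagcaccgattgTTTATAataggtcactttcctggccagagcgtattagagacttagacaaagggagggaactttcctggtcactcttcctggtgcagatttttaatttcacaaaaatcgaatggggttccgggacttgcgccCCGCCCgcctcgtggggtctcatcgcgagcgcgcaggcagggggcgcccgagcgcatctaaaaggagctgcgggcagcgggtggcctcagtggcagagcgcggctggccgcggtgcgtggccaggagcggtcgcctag
Both windows were searched on both strands for the TATA box (letters TATAAA), the CCAAT box (letters CCAAT), the GC box (letters GGGCGG) and both forms of the MYRF motif, the C form (letters CTGGCAC) and the T form (letters CTGGTAC), and no matches overlapped. The TATA box and the GC box matched once each in Fndc1, on the opposite strand, and no motif matched in the Col4a4 window. Among 32851 promoter windows of the same length, 13.6% held the TATA box, 37.4% the CCAAT box, 35.7% the GC box, 5.01% the C form of the MYRF motif and 2.24% its T form. A match is a description of letters.

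Most mesothelial genes, but not all, were lower in the cluster. Of 20 genes of the mesothelial list, 14 were negative and 6 positive in both libraries. The list summed to 3795 and 3606 CPM in the cluster against 6398 and 5845 CPM in other gated cells. Upk3b stood at 973 and 948 CPM in the cluster against 1984 and 1639 CPM in other gated cells, and Lrrn4, at 426 and 377 CPM against 271 and 260 CPM, was higher; the gate used both. Wt1 stood at 192 and 180 CPM against 145 and 150 CPM, and Myrf, the gene deleted in the mutants, at 185 and 115 CPM against 141 and 101 CPM, ratios under 2-fold. Of the 20 genes of the list, 5 were lower by 2-fold or more in both libraries. Among them was Slc26a7, an anion transporter, at 10.6 and 16.9 CPM against 201 and 161 CPM. By the same measure 1 was higher, Krt8, a simple-epithelium keratin, at 95.8 and 140 CPM against 40.3 and 54.4 CPM. Of 8 tested Hox genes none passed 2-fold in the same direction in both libraries. The cell cycle list had 17 of 28 genes lower and a summed level of 486 and 782 CPM against 2021 and 2161 CPM. With the clusters led by cell cycle genes left out, the other gated cells held 375 and 456 CPM, below the cluster. When the list was left out of the clustering, the matching cluster of 49 cells held 486 and 1658 CPM.

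Markers of other cell types were checked over their lists. Myh11, a smooth muscle myosin, had a UMI in 5 of 7 and 16 of 39 cells of the cluster, against 24.4% and 14.1% of other gated cells, at 114 and 35.0 CPM against 15.9 and 11.3 CPM. Acta2 did not go with it, at 17.7 and 19.2 CPM against 23.7 and 25.9 CPM, and Tagln was lower, at 35.5 and 45.2 CPM against 135 and 150 CPM. Of 5 tested genes of the smooth muscle list, 1 was higher and 2 lower. The list summed to 312 and 301 CPM against 1762 and 1324 CPM, a sum that holds Hhip. Without Hhip the log2 ratio of the sum was -0.15. Epcam, an epithelial adhesion protein, had a UMI in 1 of 7 and 7 of 39 cells against 4.44% and 3.57%, while Sftpb, Sox2 and Foxa2 were at 0. Of the 2 tested genes of the epithelial list, Sox9, a transcription factor also on the chondrocyte and tendon list, was higher, at 28.4 and 65.5 CPM against 2.70 and 2.88 CPM, and the list summed to 95.8 and 279 CPM against 228 and 257 CPM. Csf1r, a macrophage receptor, had a UMI in 3 of 7 and 5 of 39 cells against 1.11% and 1.68%, while Ptprc, Lyz2 and C1qa were at 0, and the immune list summed to 14.2 and 6.78 CPM against 1.502 and 3.15 CPM. The endothelial markers Cdh5 and Cldn5 were at 0. The part of these markers in the differences was not tested. The share of Xist-positive cells, as opposed to cells with Y-linked transcripts, also differed. Cells in which both kinds of transcript or neither were seen were left aside. Xist-positive cells were 5 of 7 and 7 of 31 in the cluster, against 28.2% and 63.4% of all members, which include it, in control libraries 1 and 2. Those shares lie on opposite sides in the 2 libraries, and their part was not tested. Several genes outside the naming rule are given after their values were seen, among them Aldh1a2, Gli1, Twist1, Npnt and Frem2.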

How the data were processed

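The 4 libraries, 2 per genotype and grouped by their titles, were made with the 10x 3' kit for single cells. The deposited values are whole-number UMI counts per gene and barcode with no normalization, made by the authors with Cell Ranger 6.0.2 on mm10, per the submitters' processing notes; the barcode-calling settings and annotation release are not given in the sources used here. The files list 32285 genes, and 32235 IDs matched GENCODE vM21. The members and all 34 gene lists were chosen with earlier results of these data known.

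Barcodes with at least 1000 genes and at most 15% mitochondrial UMIs passed. UMIs of a set of cells were summed per library and scaled to CPM, and ratios were log2(CPM + 10) differences within each control library, for genes with a mean of at least 10 CPM. Cells are not replicates and the sets were chosen from the same readout, so no p-value is given for genes. Named were the rule genes, Msln, Wt1 and Myrf, the 15 largest ratios in each direction at a mean of at least 50 CPM, and up to 3 genes per list at 20 CPM. Cells were clustered with Leiden (scanpy 1.11.5, igraph 0.11.9, resolution 0.5, 20 components, 15 neighbours) on 1979 variable genes. Doublets were scored with Scrublet, whose automatic threshold failed, and the top 0.8% per 1000 barcodes were removed as an alternative only. The fold calls were tested on simulated data. Shares have exact Clopper-Pearson intervals from scipy 1.17.1. Alternatives were thinning to 5000 UMIs, other gates, filters, pseudocounts, scalings and left-out libraries. A result that rests on an item withheld here is not reported.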

Additional observations from a re-analysis of the deposited data

How the results depend on the processing

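The number of members (462) fell to 263 with at least 4 of the 6 genes, a stricter rule, and to 118 after thinning to 5000 UMIs, which leaves fewer UMIs in each cell. The 7 genes higher in members numbered 11 and 13 at 2 or 4 of the 6 genes, 35 after thinning, 19 at a pseudocount of 1 CPM, and 4 with a mean over cells, a pseudocount of 50 CPM or a mean of at least 50 CPM. Without a control replicate, with the filter on low values applied to the other library alone, they ranged from 11 to 109. The 0 lower genes numbered 1 at 2 of the 6 genes, 8 after thinning and 2 to 18 without a control replicate. Other causes were not tested.

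For the Fn1-high cluster, the 117 higher genes numbered 202 and 29 at pseudocounts of 1 and 50 CPM, 57 at a mean of at least 50 CPM and 193 to 309 without a control replicate. The 297 lower genes numbered 86 at a pseudocount of 50 CPM, 136 at 50 CPM and 381 to 715 without a replicate. When cycling clusters were left out of the cells compared, an alternative chosen after seeing the data, Nusap1, Prc1, Top2a and Rrm2 turned to log2 ratios of 0.33, 0.29, 0.86 and 0.34, so the lower cell cycle level rests on those clusters. Median-of-ratios scaling moved the median log2 ratio by less than 0.1.

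The share difference of -18.8 points, for a rule set on the controls, stayed negative in every alternative. It ranged from -5.30 after thinning to -27.1 without control replicate 2. Within replicate numbers, as a replicate block, it was -27.1 and -10.5 points, with no test. The numbers are not known to mark shared pools, so no pairing is drawn from them. Libraries 1 hold few cells, and 7 cells limit the cluster there.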
